A study of Mus musculus with 20 samples.

Results

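DNA repair and checkpoint genes encode the proteins that find damage in DNA, halt the cell cycle and restore the sequence. The 47 genes described here were taken from a list given by gene symbol. The rule uses no measured value, but earlier results of these data were known when the list was chosen. Of these, 46 are named by at least 1 probe set of the array that names a single gene, among 19607 genes so named in all. The remaining gene, Xrcc2, was not analysed here. By role, 11 of the measured genes act in homologous recombination, 7 in the Fanconi anaemia pathway, 3 in mismatch repair, 10 in damage sensing and checkpoint control, 6 in non-homologous end joining, 5 in base excision and single-strand break repair, and 4 in nucleotide excision repair or direct reversal.

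Homologous recombination copies the sister chromatid to mend a double-strand break and is used mainly after replication, whereas end joining rejoins the broken ends at any time and in thymocytes also closes the breaks made by the RAG recombinase at the T cell receptor genes. The kinases ATM and ATR sense breaks and stalled replication and act through CHK2 and CHK1, encoded by Chek2 and Chek1. Many recombination and Fanconi genes are transcribed as cells enter S phase, so that their mRNA depends on how many cells divide.

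RNA was measured on 20 arrays from C57BL/6 mice, 10 of thymocytes and 10 of thymic tumours. Thymocytes, which are T cells maturing in the thymus, were labelled wild type (WT) or Gfi1 KO and were untreated (2 and 2 arrays) or irradiated (3 and 3 arrays). The sources used here give neither the radiation dose nor the interval to harvest, nor the allele of Gfi1 that these KO thymocytes carried. Every tumour mouse carried floxed Gfi1 (Gfi1f/f) and received the alkylating mutagen ENU, and those of the Notch tumours also carried a Notch1 transgene, labelled Notch1-CT. The WT tumour mice lacked and the KO tumour mice carried Mx1-Cre, a recombinase driven by an interferon-inducible promoter that is active in blood cells and in other tissues. All of them received pIpC, an inducer of interferon, after a mediastinal tumour had appeared, and tumour cells were taken 2 to 3 weeks later. ENU tumours had 3 WT and 3 KO arrays, and Notch tumours 2 and 2. No label says whether arrays of a group came from different mice, so the p-values below may reflect technical spread alone.

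Arrays of the same group correlated across all probe sets with an r of at least 0.936, apart from KO Notch tumours 1 and 2, at 0.870. All 13 thymocyte markers measured, among them Cd3e, Cd4, Cd8a and Rag1, averaged between 12.17 and 12.78 on the log2 scale in thymocytes and between 10.70 and 12.20 on 9 tumour arrays, but 9.14 on KO Notch tumour 2. On that array the 10 B-cell markers averaged 12.44, against at most 9.03 on the other arrays. On KO ENU tumour 1, 16 macrophage and dendritic cell markers averaged 10.99, against at most 10.19 elsewhere. Of the 8 Gfi1 probe sets, numbered in the order of their IDs, sets 2 to 4 were low in untreated KO thymocytes, sets 4 to 8 in irradiated KO thymocytes and sets 2 and 3 in KO Notch tumours. Set 2 read 5.62 and 5.67 in untreated but 12.72, 12.72 and 12.74 in irradiated KO thymocytes, so the KO thymocytes before and after irradiation did not lack the same stretch of Gfi1 mRNA. In ENU tumours labelled Gfi1 KO, set 2 read 11.01, 10.70 and 10.85, against 11.22, 11.56 and 10.58 in WT. Sets 1, 6 and 8 were lower there than in WT without overlap, set 1 at 9.49, 9.64 and 9.46 against 10.14, 10.36 and 9.73. No set showed a loss of the size seen at set 2 in KO Notch tumours (6.31 and 7.10, against 11.43 and 11.01 in WT). The ENU tumours with the KO label are called labelled KO below.

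The promoters of these genes show 1 sequence feature often described for S phase genes. RefSeq promoters of build GRCm38.p6, each 300 bases long with 250 before and 50 after the start, were matched by symbol for 39 of the 47 genes. A site for the E2F factors, written as TTTCCCGC, TTTGGCGC, TTTCGCGC or TTTGCCGC on either strand, lies in 8 of the 39 (20.5%), against 2.60% of all 27025 promoters in the table. Those genes are Brca2, Bard1, Fancg, Msh3, Msh6, Chek2, Mdc1 and Xrcc6. CCAAT on either strand lies in 22 of the 39 (56.4%) against 41.1% of all, and TTTGAA, the core of the CHR element of late cell cycle genes, in 1 of the 39 (2.56%) against 20.2%; the CHR match, in Bard1, does not overlap its E2F match. These are matches of letters in a window and say nothing of binding. A base could count for more than 1 motif. Genes with a promoter that passed the limma threshold given below were counted too. After irradiation an E2F match lay in 1 of 8 higher and 1 of 5 lower genes in WT thymocytes. In KO thymocytes it lay in 1 of 8 higher and 3 of 9 lower genes. For WT ENU tumours against WT untreated thymocytes it lay in 3 of 10 and 0 of 2. A link of the site to these changes was not tested. The 4 stretches below, each of 100 promoter bases around the match and read 5′ to 3′ along the gene, belong to genes whose values the results return to: Bard1, which was higher after irradiation and in ENU tumours, Brca2, which had the largest difference of the list between WT ENU tumours and thymocytes, Chek2, which was lower after irradiation and higher in ENU tumours, and Xrcc6, which was low on 1 tumour array. Capitals mark the E2F match, on either strand, which begins 209, 168, 152 and 46 bases before the start in that order.
Bard1, chr1:71103123-71103222, minus strand: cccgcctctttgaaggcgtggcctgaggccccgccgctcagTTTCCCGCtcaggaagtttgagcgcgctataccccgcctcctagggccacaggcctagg
Brca2, chr5:150522407-150522506, plus strand: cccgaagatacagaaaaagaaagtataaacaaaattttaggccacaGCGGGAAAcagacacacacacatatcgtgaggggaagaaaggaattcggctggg
Chek2, chr5:110839785-110839884, plus strand: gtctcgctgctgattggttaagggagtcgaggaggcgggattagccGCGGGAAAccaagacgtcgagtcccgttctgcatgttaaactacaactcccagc
Xrcc6, chr15:82016269-82016368, plus strand: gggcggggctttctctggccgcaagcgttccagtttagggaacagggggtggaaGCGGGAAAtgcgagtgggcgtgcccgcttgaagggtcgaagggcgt

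Below, a value is the median log2 signal over the probe sets of a gene, each set centred over the arrays first, and a difference is given with its standard error (SE). A gene is said to rise, fall or pass when its p-value in limma, adjusted by Benjamini-Hochberg over all genes tested, is under 0.05. All 46 genes passed the filter on dim genes in each fit. Some counts are also given at an unadjusted p under 0.05. No share of all genes at that level stands beside them, so they are not read as results about the list.

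**Figure D1:**
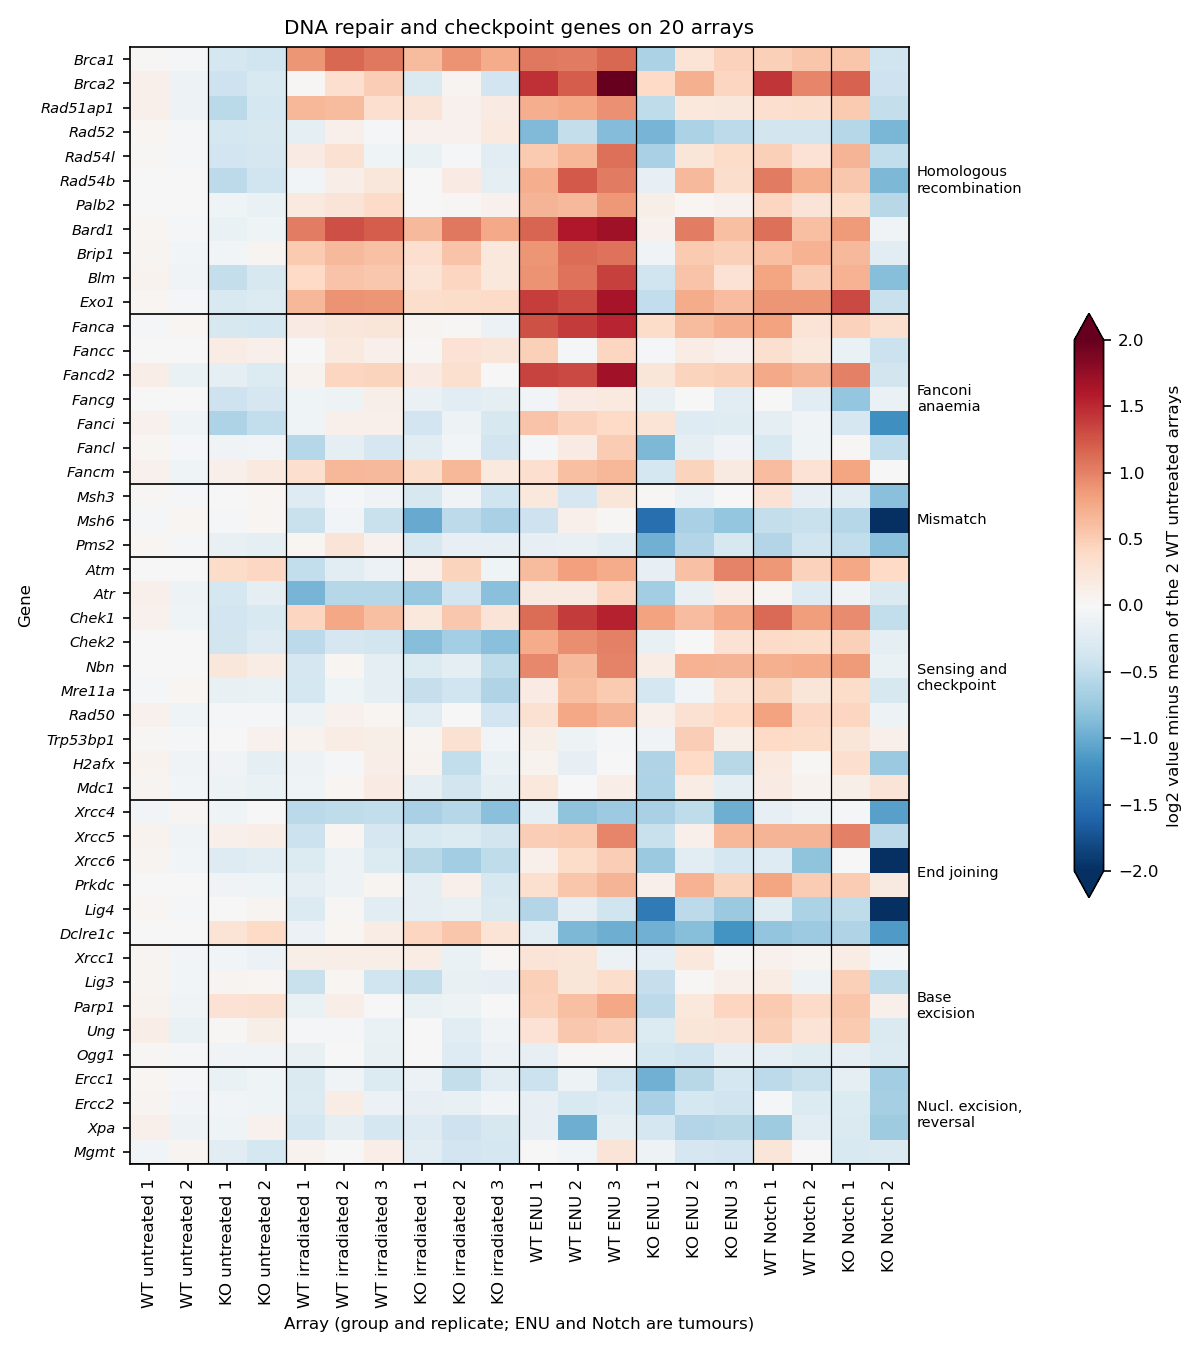
Log2 value of each of the 46 genes (vertical axis, by role) on each of the 20 arrays (horizontal axis, by group and replicate), shown as the difference from the mean of the 2 WT untreated arrays. Colours end at 2 and -2 log2 units, and darker cells past the ends are not to scale. WT ENU tumours are redder than untreated thymocytes for most recombination genes, and KO Notch tumour 2 is the lowest of the 20 arrays for 19 of the 46 genes. That count was not made over all genes.

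Irradiation of WT thymocytes asks what damage does to these genes while Gfi1 is intact. Recombination genes rose most: 7 of 11 rose and 0 fell, with a median difference of 0.50 against -0.02 over all genes tested. Bard1 and Brca1, which encode the partners of the BRCA1-BARD1 ubiquitin ligase, were 2.25-fold and 2.04-fold higher, whereas Atr and Xrcc4, the partner of DNA ligase IV, fell. Over the whole list 9 genes rose, 5 fell and 32 did not pass, where 34.6% of all genes tested passed, 13% upward and 21.7% downward. The share of the list that passed was no larger than that background.

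Bard1 read 9.12 and 9.03 in untreated and 10.10, 10.36 and 10.29 in irradiated WT thymocytes. The difference was 1.17 ± 0.12 (limma adjusted p = 1.95e-06). Brca1 read 8.48 and 8.44 before and 9.34, 9.61 and 9.51 after irradiation. All 3 irradiated arrays lay above both untreated ones for either gene, and all 25 Brca1 probe sets moved upward. The Brca1 difference was 1.03 ± 0.11 (limma adjusted p = 2.44e-06). Exo1, an exonuclease that trims the broken ends, read 8.62 and 8.53 before and 9.24, 9.48 and 9.47 after, a difference of 0.82 ± 0.10. The other recombination genes that rose were Brip1, a helicase that binds BRCA1 (0.59 ± 0.11), Rad51ap1 (0.54 ± 0.12), the helicase Blm (0.50 ± 0.11) and Palb2, which joins BRCA1 to BRCA2 (0.28 ± 0.10). Brca2 itself did not pass, with a difference of 0.29 ± 0.14.

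Among the sensors and checkpoint kinases the directions were mixed. Chek1 read 9.38 and 9.22 in untreated and 9.73, 10.07 and 9.90 in irradiated WT thymocytes, a difference of 0.60 ± 0.12. Its upstream kinase Atr read 9.21 and 9.01 before and 8.18, 8.54 and 8.54 after. The groups did not overlap for either gene, and Atr fell by 0.69 ± 0.14 (limma adjusted p = 0.00131). Chek2, the kinase downstream of ATM, fell by 0.41 ± 0.10, and Atm, with a difference of -0.27 ± 0.14, did not pass. In the Fanconi pathway, which repairs DNA crosslinks, the translocase Fancm rose by 0.55 ± 0.14 and the ubiquitin ligase subunit Fancl fell by 0.36 ± 0.12. Of 6 end joining genes only Xrcc4 passed, at 10.14 and 10.24 before and 9.65, 9.68 and 9.70 after. It fell by 0.51 ± 0.10 (limma adjusted p = 0.00114), on all 7 of its probe sets. Xpa, a damage-binding protein of nucleotide excision repair, fell by 0.30 ± 0.11. Base excision and mismatch repair had 0 of 5 and 0 of 3 past the limma threshold, with 0 and 1 at an unadjusted p under 0.05.

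In KO thymocytes the recombination genes were again the group with the most rises. Untreated and irradiated KO arrays lacked different stretches of Gfi1 mRNA, so irradiation and any difference in allele or stock cannot be told apart here, nor in the difference between the KO and WT responses. Of 11 recombination genes 8 rose and 0 fell, with a median of 0.46, and of all 46 genes 11 rose and 10 fell, where 38.8% of all genes passed, 15.1% upward and 23.7% downward. Brca1 read 8.11 and 8.06 in untreated and 9.10, 9.36 and 9.20 in irradiated KO thymocytes, a difference of 1.13 ± 0.11 (limma adjusted p = 7.79e-07). Bard1 averaged 8.97 ± 0.03 (SD, n = 2) before and read 9.72, 10.13 and 9.84 after, a difference of 0.92 ± 0.12. For both genes the groups did not overlap. Blm (0.70 ± 0.11), Exo1 (0.65 ± 0.10), Rad51ap1 (0.62 ± 0.12), Rad52, which anneals single strands (0.46 ± 0.10), the DNA translocase Rad54b (0.45 ± 0.12) and Brip1 (0.37 ± 0.11) rose too. Chek1 rose by 0.69 ± 0.12, and Fancd2 and Fanca of the Fanconi pathway rose by 0.40 ± 0.13 and 0.32 ± 0.10.

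The falls in KO thymocytes covered more roles. Msh6, a mismatch recognition protein, read 10.44 and 10.50 in untreated and 9.45, 9.94 and 9.81 in irradiated KO thymocytes. Every irradiated array lay below both untreated ones, and Msh6 fell by 0.74 ± 0.14 (limma adjusted p = 0.000649). The break-binding MRN complex is formed by Mre11a, Rad50 and Nbn: Nbn fell by 0.51 ± 0.12 and Mre11a by 0.35 ± 0.11, while Rad50 had a difference of -0.16 ± 0.11. Of the end joining genes Xrcc4 fell by 0.65 ± 0.10, and Xrcc5 and Xrcc6, the subunits of the Ku ring that binds broken ends, by 0.43 ± 0.12 and 0.35 ± 0.10. Parp1, which marks single-strand breaks, fell by 0.38 ± 0.10, as did Atr (0.38 ± 0.14) and Chek2 (0.48 ± 0.10). Xpa fell by 0.33 ± 0.11.

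The irradiation comparisons of WT and KO share no array. Rises in both were seen for 7 genes, Bard1, Blm, Brca1, Brip1, Chek1, Exo1 and Rad51ap1, which are 77.8% of those that rose in WT and 63.6% of those in KO. Falls in both were seen for Atr, Chek2, Xpa and Xrcc4, 80% of the WT falls and 40% of the KO falls. The same overlap was not counted over all genes, so these shares are not read as a result about repair genes. The difference between the responses, KO minus WT, passed limma for 0 of the 46 genes, while 1.88% of all genes passed (1.1% higher, 0.784% lower); 2 were higher and 1 lower at an unadjusted p under 0.05. Its largest values were 0.51 ± 0.15 for Rad52 (limma adjusted p = 0.102), -0.42 ± 0.20 for Msh6 and -0.38 ± 0.15 for Parp1. Rad52 read 10.53 and 10.45 in untreated and 10.30, 10.59 and 10.46 in irradiated WT thymocytes, against 10.13 and 10.17, then 10.58, 10.57 and 10.68, in KO. Its WT arrays thus overlapped before and after irradiation and its KO arrays did not. Without WT irradiated array 2 the Rad52 difference was 0.58 ± 0.13 and passed limma (adjusted p = 0.0435).

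**Figure D2:**
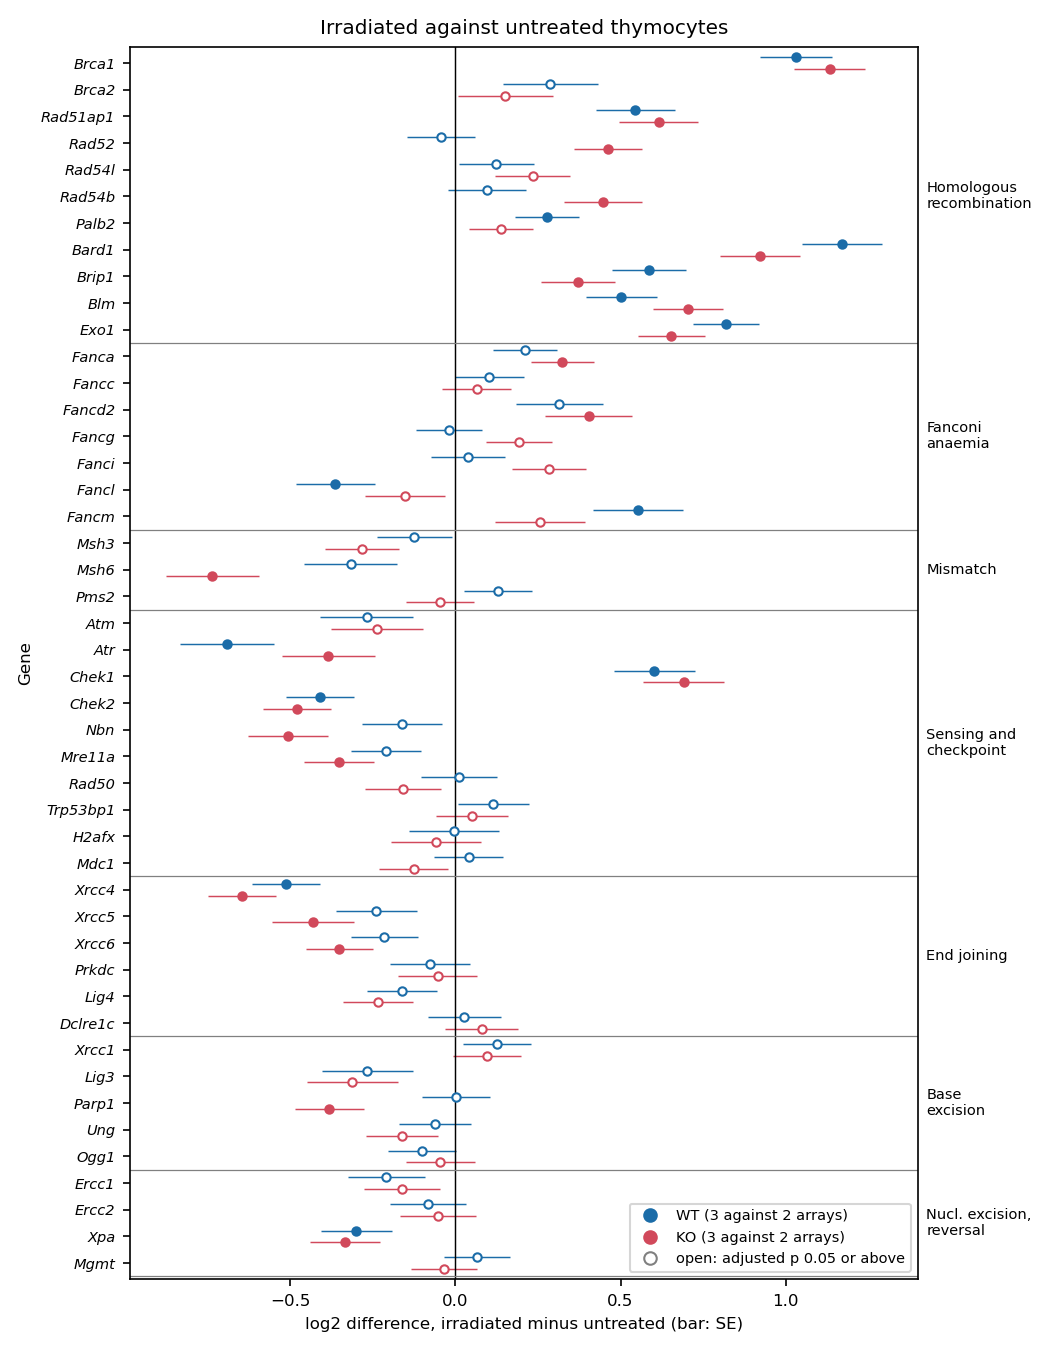
Log2 difference, irradiated minus untreated thymocytes (horizontal axis), for each of the 46 genes (vertical axis, by role), in WT (blue) and KO (red), 3 arrays against 2 in each; bars are 1 SE and filled points passed the limma threshold. Brca1, Bard1, Exo1, Blm, Chek1 and Rad51ap1 lie at or above 0.50 in both genotypes, and Xrcc4 at or below -0.51.

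Genes of the cell cycle moved beside these genes. Of 38 S phase genes 25 rose and 1 fell in WT and 21 rose and 1 fell in KO thymocytes, among them Pole, the leading-strand polymerase (1.13 ± 0.11 and 0.92 ± 0.11), and E2f1 (0.96 ± 0.11 and 0.94 ± 0.11). Of 34 mitosis genes 4 rose and 17 fell in WT, and 2 rose and 15 fell in KO, with Plk1, the mitotic kinase, at -1.24 ± 0.11 and -1.60 ± 0.11. Of 23 tested p53 targets 14 rose and 1 fell in WT and 17 rose and 2 fell in KO. The part that the cell cycle had in the changes of repair genes was not tested. In bulk RNA, fewer cells of a type and less RNA per cell cannot be told apart. Of 75 tested repair and checkpoint genes outside the list, 14 rose and 16 fell in WT and 19 rose and 14 fell in KO, led in both by Neil1, a glycosylase for oxidised bases (1.43 ± 0.11 and 1.90 ± 0.11). The polymerase Polk, which copies past lesions, rose by 0.84 ± 0.11 and 0.93 ± 0.11. Granulocyte markers averaged 9.08 ± 0.11 (SD, n = 2) in untreated and 7.94 ± 0.04 (SD, n = 3) in irradiated WT arrays, and B-cell markers 8.54 to 8.65 and 7.83 to 7.90; in KO, granulocyte markers averaged 6.96 to 7.03 and 7.13 to 7.20, and B-cell markers 8.98 to 9.03 and 8.06 to 8.19. Macrophage and dendritic cell markers averaged 8.79 to 8.84 before and 7.85 to 7.93 after irradiation in WT, and 9.23 and 8.53 to 8.77 in KO. Natural killer and cytotoxic cell markers averaged 8.29 to 8.51 and 7.51 to 7.62 in WT, and 8.87 to 8.90 and 7.87 to 8.05 in KO. Erythroid and platelet markers averaged 7.79 to 7.80 and 7.70 to 7.92 in WT, and 9.13 to 9.27 and 8.27 to 8.47 in KO. Thymocyte markers averaged 12.74 to 12.78 before and 12.32 to 12.44 after irradiation in WT. In KO they averaged 12.65 to 12.69 and 12.17 to 12.31. Thymic stroma markers averaged 8.59 to 8.60 and 8.62 to 8.73 in WT, and 8.81 to 8.85 and 8.83 to 8.87 in KO. Most of these marker lists, that of thymocytes included, were thus lower after irradiation. The part of these cells was not tested.

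Untreated KO and WT thymocytes were compared to see these genes without Gfi1 and before damage. Recombination and Fanconi genes were lower: 4 of 11 and 3 of 7 fell, and no gene of another role passed. The list held 0 rises in limma, with 3 higher at an unadjusted p under 0.05. After quantile normalization Parp1 and Dclre1c rose (0.31 ± 0.10 and 0.34 ± 0.10), and with the mean of probe sets Parp1 did (0.35 ± 0.11). Of all genes 12.3% passed, 6.79% upward and 5.49% downward, so that the 7 falls among 46 genes were more than that downward share and the rises fewer. The median difference was -0.11 over the list and -0.36 over the recombination genes, against -0.02 over all genes.

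Fanci, which pairs with FANCD2 on damaged DNA, read 9.25 and 9.08 in WT and 8.55 and 8.68 in KO. It fell by 0.55 ± 0.12 (limma adjusted p = 0.00552), the largest fall in the list. Blm read 9.55 and 9.41 in WT and 9.01 and 9.15 in KO, and Brca1 8.48 and 8.44 against 8.11 and 8.06. Both KO arrays lay below both WT arrays for these 3 genes, as for 29 of the 46, and above them for 7; 33.3% of all genes had such an order downward and 28.6% upward. The other falls were Rad51ap1 (-0.45 ± 0.13), Rad54b (-0.45 ± 0.13), Fancg (-0.37 ± 0.11) and Fanca (-0.34 ± 0.10), with Blm at -0.40 ± 0.12 and Brca1 at -0.38 ± 0.12. Chek1 (-0.35 ± 0.13) and Chek2 (-0.31 ± 0.11) had lower means that did not pass, and Atm, at 9.32 and 9.30 in WT and 9.68 and 9.73 in KO, a higher one (0.39 ± 0.15).

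The calls rested on few arrays: without any single array of these 4, 0 or 1 of the 7 falls was left, and 0 with all 20 arrays in the fit. Of 38 S phase genes 5 fell and 0 rose, led by Prim1, a primase subunit (-0.65 ± 0.13), and E2f2 (-0.60 ± 0.12), and of 34 mitosis genes Cenpa fell (-0.46 ± 0.11). Of 75 other repair genes 8 fell and 0 rose, among them Ddb2, a damage-binding protein (-0.58 ± 0.11), Neil3 (-0.71 ± 0.13), Fancb (-0.63 ± 0.12) and Parp2 (-0.52 ± 0.12). Markers of other cells differed as well. Granulocyte markers were lower in KO (6.96 to 7.03 against a mean of 9.08), while erythroid and platelet markers (9.13 to 9.27 against 7.79 to 7.80) and macrophage and dendritic cell markers (9.23 against 8.79 to 8.84) were higher. Markers of B cells, natural killer and cytotoxic cells, and thymic stroma were higher too, without overlap. Thymocyte markers were lower in KO (12.65 to 12.69 against 12.74 to 12.78). The part of these cells in the falls was not tested.

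After irradiation, genes of 5 roles differed between KO and WT thymocytes; the arrays are those of the irradiation comparisons. Of the 46 genes 2 were higher and 10 lower in KO, where 14.9% of all genes passed, 8.12% upward and 6.81% downward, and the median was -0.16 against -0.03 over all genes. Exo1 read 9.24, 9.48 and 9.47 in WT and 8.93, 8.94 and 8.96 in KO. It was lower by a difference of -0.45 ± 0.09 (limma adjusted p = 0.00191), with no overlap. Brca2 read 8.66, 8.98 and 9.13 in WT and 8.35, 8.68 and 8.25 in KO. The highest KO array reached just above the lowest WT array, and the difference was -0.49 ± 0.13. Rad51ap1 (-0.38 ± 0.11), whose arrays did not overlap, and Bard1 (-0.35 ± 0.11), whose arrays did, completed the 4 recombination genes.

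Outside recombination, Msh6 (-0.41 ± 0.13) and Pms2 (-0.34 ± 0.09), which act in mismatch repair, were lower, as were Chek2 (-0.38 ± 0.09), the damage mediator Mdc1 (-0.29 ± 0.09) and Xrcc6 (-0.37 ± 0.09). Mgmt, the enzyme that takes alkyl groups directly off guanine, read 8.16, 8.07 and 8.22 in WT and 7.87, 7.70 and 7.74 in KO, a difference of -0.38 ± 0.09 (limma adjusted p = 0.00701). Its KO arrays all lay below its WT arrays. The 2 genes that were higher were Atm (0.42 ± 0.13) and Dclre1c, which encodes the Artemis nuclease that opens hairpin ends in RAG recombination. Dclre1c read 10.67, 10.82 and 10.94 in WT and 11.21, 11.34 and 11.06 in KO, without overlap, a difference of 0.39 ± 0.10 (limma adjusted p = 0.0113). Before irradiation Dclre1c read 10.77 and 10.80 in WT and 11.06 and 11.18 in KO, a difference of 0.34 ± 0.12 short of the threshold.

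**Figure D3:**
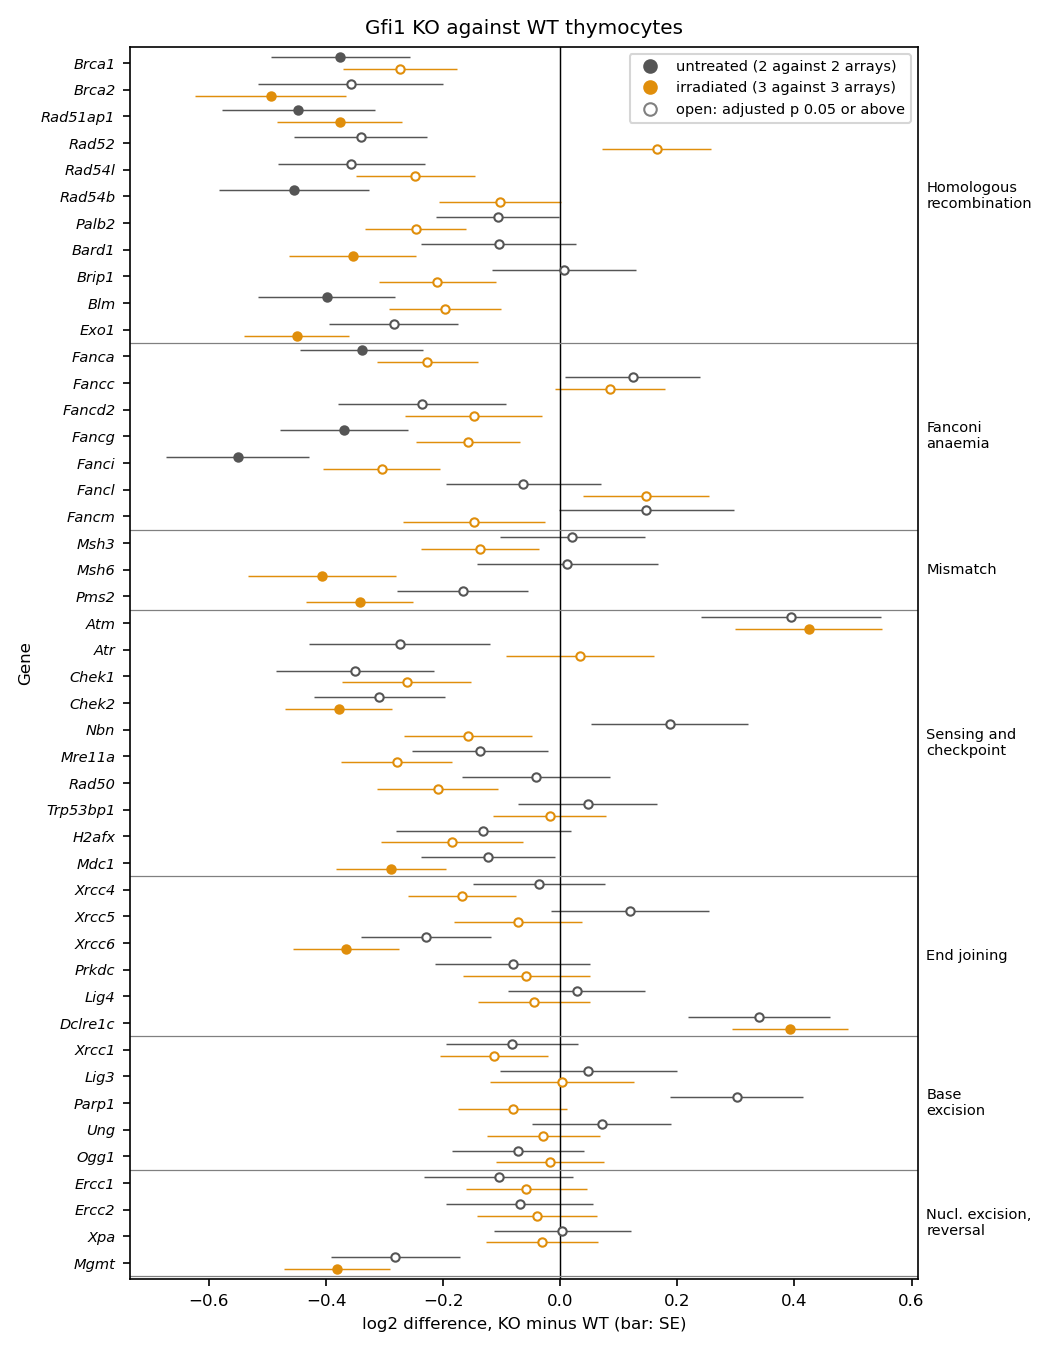
Log2 difference, KO minus WT thymocytes (horizontal axis), for each of the 46 genes (vertical axis, by role), in untreated (2 against 2 arrays) and irradiated cells (3 against 3); bars are 1 SE and filled points passed the limma threshold. Recombination genes lie mostly to the left of 0, and Atm and Dclre1c to the right.

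Of the 12 genes called after irradiation, 5 were left without WT irradiated array 2, 7 without KO irradiated array 3, and 0 with all 20 arrays in the fit. S phase genes were lower in KO for 13 of 38 and higher for 0, led by Tyms, the thymidylate synthase (-0.62 ± 0.10), and Tk1 (-0.49 ± 0.11), and mitosis genes were lower for 6 of 34. Of 75 other repair genes 9 were lower, led by Tdp1, which clears stalled topoisomerase (-0.54 ± 0.11), and 1 was higher, the polymerase Polm of end joining (0.40 ± 0.10). Granulocyte markers averaged 7.13 to 7.20 in KO and 7.90 to 7.97 in WT, and macrophage and dendritic cell markers 8.53 to 8.77 and 7.85 to 7.93. Thymocyte markers averaged 12.17 to 12.31 in KO and 12.32 to 12.44 in WT. Markers of B cells, natural killer and cytotoxic cells, erythroid cells and platelets, and thymic stroma were higher in KO without overlap. The part of these cells and of cell division was not tested.

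WT ENU tumours against WT untreated thymocytes shows where these genes stood in transformed cells. Of the 46 genes 15 were higher and 2 lower in the tumours, where 20.1% of all genes passed, 9.87% upward and 10.2% downward. Of 11 recombination genes 9 were higher and 1 lower, with a median difference of 1.03 against 0.44 over the list and 0.01 over all genes. This comparison uses the WT untreated arrays that also served for the irradiation comparison in WT.

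Brca2 read 8.74 and 8.53 in thymocytes and 10.10, 9.84 and 10.82 in the tumours, a difference of 1.62 ± 0.36 (limma adjusted p = 0.00621), or 3.07-fold. Fanca, a core subunit of the Fanconi ubiquitin ligase, read 8.72 and 8.79 against 10.03, 10.15 and 10.29. Fancd2, which that ligase modifies, read 8.63 and 8.37 against 9.86, 9.82 and 10.18. The tumours lay more than 1 log2 unit above the thymocytes for these 3 genes, with no overlap. The differences were 1.40 ± 0.15 for Fanca (limma adjusted p = 3.57e-05) and 1.45 ± 0.28 for Fancd2. Bard1 (1.48 ± 0.28), Exo1 (1.44 ± 0.39), Blm (1.12 ± 0.34), Brca1 (1.08 ± 0.27), Brip1 (1.03 ± 0.21), Rad54b (1.00 ± 0.31), Rad51ap1 (0.81 ± 0.25) and Palb2 (0.74 ± 0.18) were the other recombination genes that were higher.

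Of the checkpoint genes Chek1 read 9.38 and 9.22 in thymocytes and 10.42, 10.70 and 10.84 in the tumours, a difference of 1.36 ± 0.28. Chek2, which had been lower in irradiated thymocytes, was higher in the tumours by 0.89 ± 0.17, and Nbn and Rad50 of the MRN complex by 0.87 ± 0.23 and 0.59 ± 0.18. The 2 lower genes were Rad52, at 9.61, 10.01 and 9.62 against 10.53 and 10.45, and Dclre1c, at 10.55, 9.88 and 9.81 against 10.77 and 10.80. All tumour arrays lay below both thymocyte arrays, and the differences were -0.74 ± 0.15 and -0.70 ± 0.20 (limma adjusted p = 0.00371 and 0.0232). Mismatch repair had 0 of 3, base excision 0 of 5 and nucleotide excision repair with direct reversal 0 of 4 past the limma threshold, with 0, 2 and 0 at an unadjusted p under 0.05.

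Division genes were higher in the same tumours, 14 of 38 S phase genes (1 lower) and 19 of 34 mitosis genes (0 lower), with Mki67, the proliferation antigen, at 1.31 ± 0.16. Of 77 other repair genes 17 were higher, among them Polq, the polymerase of microhomology end joining (1.44 ± 0.25), and 6 lower, among them Neil1 (-1.15 ± 0.15) and the nuclease gene Mus81 (-1.06 ± 0.14). Thymocyte markers averaged 11.72 to 12.07 in the tumours and 12.74 to 12.78 in thymocytes, and granulocyte markers 7.21 to 7.40 in the tumours and a mean of 9.08 in thymocytes. Macrophage and dendritic cell markers averaged 9.20 to 9.35 in the tumours against 8.79 to 8.84. Erythroid and platelet markers averaged 8.10 to 8.30 against 7.79 to 7.80, and thymic stroma markers 8.64 to 8.82 against 8.59 to 8.60. B-cell markers averaged 7.29 to 7.99 against 8.54 to 8.65. Natural killer and cytotoxic cell markers averaged 7.26 to 7.72 against 8.29 to 8.51. The part of these cells was not tested. The count of genes called moved with single arrays, to 10 without WT ENU tumour 3, where 14% of all genes passed. Without either WT untreated array fewer genes kept their call. The median difference was then 0.47 without array 1 and 0.35 without array 2. The count came to 27 (24 higher, 3 lower) in a fit without KO Notch tumour 2 and KO ENU tumour 1, chosen after seeing the data. In that fit 33.6% of all genes passed, against 20.1% with those arrays.

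WT Notch tumours, with 2 arrays in place of 3, were set against the same untreated arrays. The median difference over the list was 0.34, against -0.004 over all genes. Of the 46 genes only Dclre1c passed, at a mean of 10.03 ± 0.05 (SD, n = 2) in the tumours and 10.78 ± 0.02 (SD, n = 2) in thymocytes. Its difference was -0.75 ± 0.22 (limma adjusted p = 0.0494), where 7.68% of all genes passed, 2.14% higher and 5.54% lower. Fanca (0.54 ± 0.16), Prkdc, the catalytic kinase of end joining (0.65 ± 0.20), Chek1 (0.99 ± 0.31) and Brca2 (1.20 ± 0.39) had higher means that did not pass (smallest limma adjusted p = 0.0515). At an unadjusted p under 0.05, 12 were higher and 4 lower, with no share of all genes at that level beside the count. Dclre1c lost its call without any 1 of the 4 arrays, with brighter probe sets only, without a filter and with an intensity trend. Without KO Notch tumour 2 and KO ENU tumour 1, 22 genes passed (18 higher, 4 lower). In that fit 20.5% of all genes passed. Set against WT ENU tumours directly, WT Notch tumours had 0 of 46 genes past the limma threshold, where 0.023% of all genes passed (0.0154% higher, 0.00768% lower), and 0 higher and 2 lower at an unadjusted p under 0.05. Fanca came closest, at 9.56 and 9.04 against 10.03, 10.15 and 10.29, without overlap (a difference of -0.86 ± 0.20, limma adjusted p = 0.361).

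KO against WT in ENU tumours asks what the label of Gfi1 loss goes with in an established tumour. No gene of the list passed limma, and 0% of all genes did. Of the 46 differences 44 were negative, with a median of -0.47 against -0.07 over all genes. The share of all genes with a negative difference is not given here, so that count is not read as a result about the list. At an unadjusted p under 0.05, 0 were higher and 18 lower, with no share of all genes at that level beside the count. All 3 labelled KO arrays lay below all 3 WT arrays for 26 genes and above for 0, an order held downward by 19% and upward by 10.4% of all genes.

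Fanca read 10.03, 10.15 and 10.29 in WT and 9.12, 9.40 and 9.48 in labelled KO tumours, a difference of -0.82 ± 0.17 (limma adjusted p = 0.284). Chek2 read 9.18, 9.38 and 9.45 against 8.30, 8.45 and 8.73, and Brca1 9.51, 9.49 and 9.61 against 7.83, 8.74 and 8.91. The groups did not overlap for these 3 genes, and KO ENU tumour 1 was the lowest of its group in each. Differences were -0.84 ± 0.20 for Chek2, -1.04 ± 0.32 for Brca1 and -1.06 ± 0.31 for Fancd2. The median over the 11 recombination genes was -0.83. With all 20 arrays in the fit 8 genes passed, all lower: Bard1, Brca1, Brip1, Chek2, Fanca, Fancd2, Palb2 and Rad51ap1. In that fit 5.02% of all genes passed. Without KO ENU tumour 1, 42 differences were negative, with a median of -0.29 against -0.07 over all genes. S phase and mitosis genes had medians of -0.76 and -0.68 here, with 0 past the limma threshold and 11 and 14 lower at an unadjusted p under 0.05. Markers of other cells moved with the label. Thymocyte markers averaged 10.70 to 11.64 in the 3 labelled KO tumours and 11.72 to 12.07 in the 3 WT tumours. Natural killer and cytotoxic cell markers averaged 8.18 to 8.72 against 7.26 to 7.72, and erythroid and platelet markers 8.68 to 9.64 against 8.10 to 8.30. None of these 3 lists overlapped between the groups. B-cell markers averaged 7.89 to 8.93 against 7.29 to 7.99, and macrophage and dendritic cell markers 9.30 to 10.99 against 9.20 to 9.35. KO ENU tumour 1 had the lowest thymocyte marker mean of the 6, and its recombination genes averaged 8.53, against 9.22 and 9.14 on the other 2 arrays. The part of other cells was not tested.

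**Figure D4:**
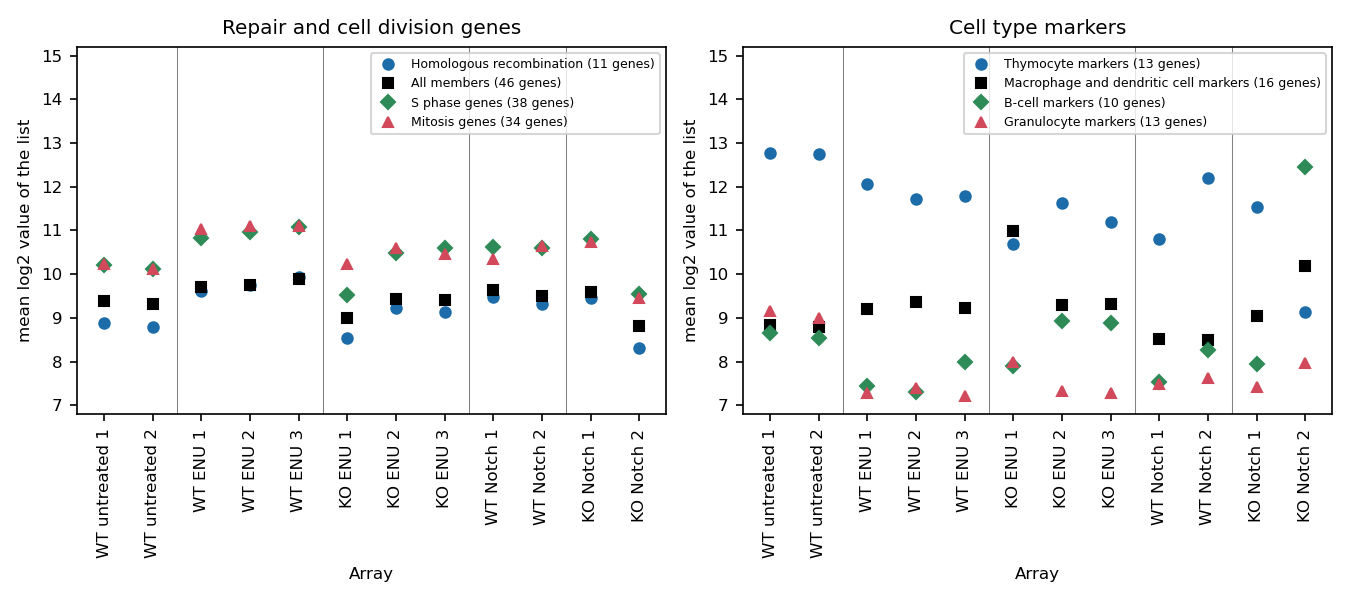
Mean log2 value of gene lists (vertical axis) on each WT untreated and tumour array (horizontal axis). Left, recombination genes, all 46 repair genes, S phase and mitosis genes; right, markers of thymocytes, macrophages and dendritic cells, B cells and granulocytes. On KO Notch tumour 2 the 46 genes average 8.81, the lowest array mean, and B-cell markers 12.44.

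In Notch tumours the comparison of KO with WT turned on 1 array. With both KO arrays, 0 of 46 genes passed limma, where 0.0154% of all genes did. At an unadjusted p under 0.05, 0 were higher and 3 lower. Of the differences 44 were negative, and the median was -0.34, against -0.05 over all genes. Without KO Notch tumour 2, whose B-cell markers stood at 12.44, 18 were negative and the median was 0.03, against -0.004 over all genes. In 26 of the 46 genes the sign changed with that array, as for Xrcc6 (-1.09 with it, 0.53 without it) and Xrcc5 (-0.43 and 0.33). No share of all genes stands beside the counts of negative differences and of sign changes. They are thus not read as results about the list. Without KO Notch tumour 1 the KO side was KO Notch tumour 2 alone. The median difference was then -0.68 over the list, against -0.10 over all genes. That value describes 1 array. The 46 genes averaged 9.60 on KO Notch tumour 1, within the WT range of 9.50 to 9.64, and 8.81 on KO Notch tumour 2. Array 2 was the lowest of the 20 arrays for 19 of the 46 genes and for 209 of their 954 probe sets (21.9%). KO ENU tumour 1 was the lowest for 11 genes and 15.7% of the probe sets, and WT ENU tumour 3 the highest for 18 genes and 31.8%. The same counts were not made over all genes, so these are not read as a result about repair genes.

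Xrcc6, chosen after its values were seen, was the gene furthest down on KO Notch tumour 2. It read 7.95 there, 11.19 on KO Notch tumour 1, 10.93 and 10.39 in WT Notch tumours, and between 10.39 and 11.69 on all other arrays. Of its 14 probe sets, 13 were lower on that array than on each of the other 19, by 0.81 to 2.86 log2 units. The exception, probe set 13, read 9.74 there and 9.45 to 10.10 elsewhere. Its Ku partner Xrcc5 read 9.24 there, against 10.76 on KO Notch tumour 1 and 9.32 or more elsewhere. Lig4, the ligase that seals the ends, read 7.95 there and 9.59 on KO Notch tumour 1, but only 2 of its 4 probe sets were lowest on that array. Msh6 read 8.39 there, against 9.89, 9.98 and 10.01 on the other Notch tumours. Prkdc, at 9.44, and Atm, at 9.71, lay within the range of all other arrays. Both lay below the other Notch tumours, which read 9.77 to 10.05 for Prkdc and 9.77 to 10.17 for Atm. The genes were thus not lower by the same amount.

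**Figure D5:**
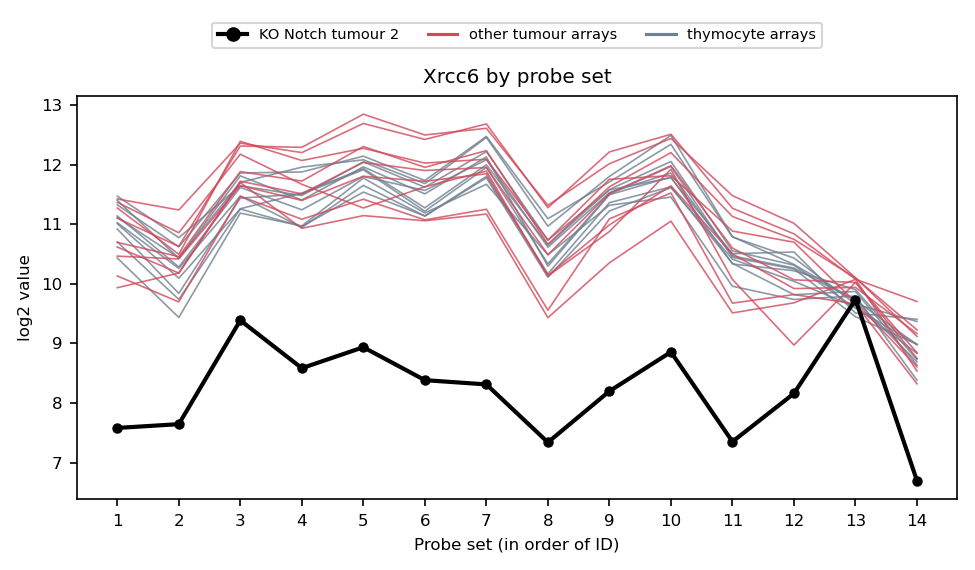
Log2 value of each of the 14 Xrcc6 probe sets (horizontal axis, in order of ID; vertical axis, log2 value) on KO Notch tumour 2 (black), the other 9 tumour arrays (red) and the 10 thymocyte arrays (grey). The black line lies below every other line at 13 probe sets, by 0.81 to 2.86, and within them at probe set 13.

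The difference between the KO effects of Notch and ENU tumours passed limma for 0 of 46 genes, as for 0% of all genes, with 1 higher and 0 lower at an unadjusted p under 0.05 (smallest limma adjusted p = 0.68). The fit without KO Notch tumour 1 rests on KO Notch tumour 2 alone, the array on which Xrcc6 was picked, and no call for Xrcc6 is read from it.

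Several genes varied little. Ogg1, the glycosylase of oxidised guanine, stayed between 9.02 and 9.45 on all 20 arrays, Xrcc1, the scaffold of single-strand break repair, between 9.40 and 9.85, and the damage mediator Trp53bp1 between 9.15 and 9.73. None of the 3 passed in any of the 11 comparisons. H2afx, the histone variant marked at breaks, rests on 1 probe set, read 10.30 to 11.43 and passed in none. Some probe sets, chosen after their values were seen, left their gene on 1 array: Msh3 probe set 27 read 5.82 on WT ENU tumour 1 and 8.32 to 9.73 elsewhere, and Brca2 probe set 18 read 3.59 on KO untreated array 2 and 6.18 to 9.77 elsewhere. The gene values above take the median of the probe sets and so give such sets little weight.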

How the data were processed

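The deposited table holds 182058 probe sets on 20 arrays (3.37 to 15.01). From that range the authors' deposited values were read as log2 signal; no source used here states the base, the normalization or the summary method, so a fold holds only if the base is 2. Per the labels' protocols, RNA was amplified with a NuGEN kit. Of the probe sets, 167016 name 1 gene in GEO's platform annotation (3388 several, 11654 none); 954 name a repair gene of the list, 1 to 84 each (median 18). Probe sets were centred over the 20 arrays, their median taken per gene and array, and the gene's mean added back. Genes above the 40th percentile of an array on at least 2 arrays were tested with limma 3.58.1 (R 4.3.3, data.table version 1.17.8; lmFit, eBayes), adjusted by Benjamini-Hochberg at a threshold of 0.05. Thymocyte comparisons used 10 arrays, tumour comparisons 10, tumours against thymocytes all 20. The fit was tested on simulated data. Figures used Python 3.11.15 and matplotlib 3.10.9. Array number limits precision: the median SE over genes ran from 0.0999 to 0.318. The 47 genes and the other lists were chosen with earlier results of these data known. Up to 15 genes with the smallest p per comparison were named, a set of 15 fixed repair genes in any, and up to 4 of each other list. Alternatives were quantile normalization, the mean of probe sets, brighter probe sets only, no filter or the 60th percentile, an intensity trend, all 20 arrays, the replicate block, and leaving out arrays.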

Additional observations from a re-analysis of the deposited data

Results flagged for a closer look

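For 2 genes, all KO arrays lay on one side of all WT arrays in untreated thymocytes and on the other side in tumours. Such opposite orders between any of the 4 comparisons of KO with WT were seen in 2 of the 46 genes and in 15% of all 12346 genes tested in both thymocytes and tumours, so the list held no more of them than that share. Fancc, a core subunit of the Fanconi ubiquitin ligase, differed by 0.12 in untreated thymocytes (8.49 and 8.45 in KO, 8.33 and 8.35 in WT) and by -0.55 in Notch tumours (8.20 and 7.92 in KO, 8.66 and 8.56 in WT). Parp1 differed by 0.30 in untreated thymocytes (10.26 and 10.27 in KO, 10.03 and 9.89 in WT) and by -0.57 in ENU tumours (9.44, 10.17 and 10.38 in labelled KO, 10.42, 10.56 and 10.73 in WT). None of these 4 differences passed limma, and the difference between thymocytes and tumours was not tested.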

How the results depend on the processing

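No gene called in a comparison reversed its direction there under any alternative run; 702 results for called genes kept their side of the threshold and 218 lost it. Differences that were not called did change sign, as in Notch tumours without KO Notch tumour 2. KO against WT in untreated thymocytes called 7 genes, but 10 (2 higher) after quantile normalization, 9 (1 higher) with the mean of probe sets, 3 with brighter probe sets only, 2 without a filter, 0 with all 20 arrays and 0 to 1 with 1 array left out. After irradiation the 12 calls became 6 with brighter probe sets, 0 with all 20 arrays and 5 to 15 with 1 array left out. Irradiated against untreated cells gave 2 calls in WT and 1 in KO with all 20 arrays, and 10 to 19 and 12 to 21 with 1 array left out; the difference between the responses gave 0 to 1. With all 20 arrays ENU tumours labelled KO had 8 lower genes and WT Notch against WT ENU tumours 1. Of all genes 5.02% and 2% passed in those comparisons. In untreated thymocytes 13.7% of all genes passed after quantile normalization, 13.4% with the mean of probe sets and 10.6% with brighter probe sets. Without a filter 7.43% passed there, and with all 20 arrays 0.851%. After irradiation 13.9% passed with brighter probe sets and 1.09% with all 20 arrays, and the 5 and 15 calls stood beside 13.2% and 15.5%. With all 20 arrays, irradiated against untreated cells had 4.05% in WT and 5.71% in KO. Leaving out 1 array gave 0 to 9 calls for KO Notch tumours, 0 to 1 for the difference in KO effect, 5 to 19 for WT ENU tumours against thymocytes and 0 to 1 for WT Notch tumours; without KO Notch tumour 2 and KO ENU tumour 1, chosen after seeing the data, the last 2 gave 27 and 22. Those 27 and 22 calls stood beside 33.6% and 20.5% of all genes. Where leaving out 1 array left 1 in a group, that array was assumed to vary like the other groups. A count from such a fit rests on that 1 array, and it is not read as a result about the list. The 19 calls for WT ENU tumours against thymocytes, without WT ENU tumour 1, stood beside 18.3% of all genes. WT Notch tumours against thymocytes gave 3 calls after quantile normalization (8.06% of all genes) and 2 with the mean of probe sets (8.45%). Brighter probe sets gave 2 (7.51%), no filter 0 (5.07%) and the 60th percentile 2 (9.69%). The cause was not tested, except that leaving out arrays leaves fewer samples and the fit on 20 arrays takes its spread from tumours too. Some genes could not be tested with brighter probe sets or at the 60th percentile.

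Replicate numbers did not pair the arrays: same-numbered irradiated arrays of KO and WT correlated in their deviations at 0.22, -0.04 and -0.34, and ENU tumours at 0.04, 0.03 and -0.08. With the replicate block, untreated thymocytes gave 3 calls, irradiated thymocytes 11 and WT Notch tumours against thymocytes 0; no other count moved by over 1.5 times.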
